A study of Mus musculus with 10 samples.

Results

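Choroid plexus and ependymal genes were examined in the hippocampus of old mice on a control diet and of old mice on long-term calorie restriction. The 9 genes were Ttr, Kl, Folr1, Foxj1, Cox8b, Prlr, Aqp1, Otx2 and F5, and every probe set that the platform's annotation gives to only 1 of them was taken. A probe set is a group of short probes for 1 transcript. The annotation gave 10 such probe sets for 7 of the genes, out of 12488 probe sets in all, and listed none for Prlr or Otx2. Of the 10 probe sets, 5 passed the filter on low signal that kept 7453 of the 12422 probe sets that are not array controls. These were 1 each for Ttr, Kl, Folr1, Foxj1 and Cox8b. The other 5 were dim, namely both Aqp1 probe sets, the F5 probe set and a further probe set each of Folr1 and Cox8b.

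The choroid plexus is a folded epithelium in the brain ventricles that secretes cerebrospinal fluid, and the ependyma is the ciliated cell layer that lines the ventricle wall. Choroid plexus cells make transthyretin in large amounts, carry folate, water and ions across the epithelium, and release growth factors into the fluid. The choroid plexus of the lateral ventricle lies against the hippocampus, so a dissected hippocampus can hold different amounts of this tissue.

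All 10 mice were male C57BL/6 animals aged 30 months, with 5 mice on the control diet and 5 calorie restricted, and 1 mouse per array, named here by the replicate number in the labels. Total RNA of the hippocampus was labelled with biotin and measured on Affymetrix arrays. The sources used here give neither the degree of restriction nor the age at which it began. In bulk RNA, fewer cells of a type and less RNA per cell cannot be told apart, and this holds for every result given here.

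The 2 diets differed in RNA and array quality. The mean log2 signal at the 3′ end minus that at the 5′ end of the Gapdh and Actb control probe sets, which grows as RNA is degraded, ran from -0.12 to 0.45 in control arrays and from 0.78 to 6.11 in calorie restricted arrays. Calorie restricted arrays 3 and 5 stood apart at 5.20 and 6.11. The bacterial spike-in controls reached a log2 signal of 11.12 ± 0.56 (SD, n = 5) in control arrays and of 13.05 ± 0.47 (SD, n = 5) in calorie restricted arrays. Median log2 signal over all probe sets was 7.84 ± 0.05 and 7.49 ± 0.18. Each of these 3 measures separated the diets without overlap (exact two-sided permutation test, p = 0.00794 and adjusted p = 0.00794, the smallest that 252 splits can give). Diet and these quality measures cannot be told apart, and the changes of the members are also given without calorie restricted arrays 3 and 5. The deposited values are not detection calls, so whether a dim probe set was above background was not analysed here.

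Marker lists of the cell types the dissection could hold were read on every array, and no value in them fell under an intensity of 1. Markers of hippocampal neurons (7 of 8 with a probe set) summed to intensities of 3658 to 7970 in control arrays and 4043 to 7272 in calorie restricted arrays. Meningeal markers (7 of 7) summed to 4704 to 7104 and 5128 to 6638. Ependymal markers (3 of 6, the member Foxj1 among them) summed to 786 to 1202 and 522 to 831. Choroid plexus markers (8 of 15) summed to 3145 to 11954 and 929 to 15686. All of these but Slc4a5 and Cldn2 are members, so the sum largely repeats member values. Ttr alone held 13888 of the 15686 in calorie restricted array 4. Thalamic markers (5 of 5) summed to 3195 to 4224 and 2282 to 3418, striatal markers (2 of 5) to 197 to 381 and 180 to 282, and blood markers (2 of 3) to 3520 to 13607 and 3709 to 7805. Oligodendrocyte markers (5 of 6) summed to 15645 to 17976 and 5857 to 16095, and endothelial markers (4 of 5) to 914 to 1156 and 700 to 1471. The part of these cell types in the member values was not tested.

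Promoter sequences from RefSeq (build GRCm38.p6) are shown for the 3 genes whose signal, as described further on, followed Ttr over the arrays with a correlation above 0.5 and for which a promoter window was at hand. Each window runs from 250 bases before to 50 bases after the start site, on the strand of the gene, and capitals mark matches to the 3 motifs searched. The windows are chr5:150952357-150952656 on the plus strand for Kl, chr1:164151585-164151884 on the plus strand for F5 and chr7:140900397-140900696 on the minus strand for Cox8b.
Kl: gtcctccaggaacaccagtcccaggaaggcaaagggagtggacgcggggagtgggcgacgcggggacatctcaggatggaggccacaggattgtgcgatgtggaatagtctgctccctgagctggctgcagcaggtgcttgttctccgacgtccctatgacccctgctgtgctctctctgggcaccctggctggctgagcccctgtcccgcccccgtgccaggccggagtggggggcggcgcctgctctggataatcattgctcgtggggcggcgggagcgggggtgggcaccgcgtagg
F5: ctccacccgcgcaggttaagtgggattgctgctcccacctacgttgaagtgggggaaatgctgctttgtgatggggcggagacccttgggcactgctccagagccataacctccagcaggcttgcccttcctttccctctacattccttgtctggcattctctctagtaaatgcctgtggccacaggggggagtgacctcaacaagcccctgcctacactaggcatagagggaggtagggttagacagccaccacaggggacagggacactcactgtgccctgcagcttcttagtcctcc
Cox8b: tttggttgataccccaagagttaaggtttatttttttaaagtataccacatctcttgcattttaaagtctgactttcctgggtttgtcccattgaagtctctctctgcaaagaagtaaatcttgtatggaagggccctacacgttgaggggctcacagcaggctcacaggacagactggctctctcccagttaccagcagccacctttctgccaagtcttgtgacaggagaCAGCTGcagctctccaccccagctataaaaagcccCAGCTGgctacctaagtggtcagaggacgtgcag
The motifs, searched on both strands, were GGATTA (the core bound by Otx2 and related homeobox factors), TGTTTAC (the core bound by Foxj1 and other forkhead factors) and CAGCTG (an E-box, which reads the same on both strands). Of 32851 windows of this length, 7.06% held GGATTA, 3.65% held TGTTTAC and 16.3% held CAGCTG. The Cox8b window held CAGCTG at 2 places, the first ending 14 bases before the start site, and neither of the other motifs. The Kl and F5 windows held none of these letters, and neither did the Aqp1 window. Otx2 and Prlr, the members without a probe set, had 4 and 3 windows. An Otx2 window held GGATTA, and a Prlr window held TGTTTAC and CAGCTG. The Kl window was GC-rich, at 67.3% GC with 19 CG pairs against a median of 7 pairs in all windows. The Cox8b window had 48.3% GC and 2 CG pairs, and the F5 window 57.7% GC and 4 CG pairs.

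Folr1 and Foxj1 were lower in calorie restricted mice, and Ttr and Kl, with larger mean changes, did not pass the test, with calorie restricted mice that differed widely from one another. A wider spread among calorie restricted mice was common, found in 76.0% of tested probe sets. The SD in calorie restricted mice over that in controls had a median of 1.65, and was 2.80 for Ttr and 2.07 for Kl. Of the 5 probe sets that passed the filter, 2 were called at a Benjamini-Hochberg adjusted p under 0.05 in limma, and both were lower. Over all 7453 tested probe sets 11.8% were called, with 577 (7.74%) lower and 306 (4.11%) higher. Quantile normalization gave 282 lower and 321 higher, and centring each array on its median gave 190 lower and 849 higher, so the split of the background moved with the scaling. All 10 member probe sets kept the direction of their change relative to the median after quantile normalization, while centring cannot move that change. A probe set could pass the filter through its signal in either diet, so the count over those that passed is a description. When all 10 member probe sets were kept in a fit with no filter, 2 of the 10 were called, Folr1 and Aqp1, both lower, against 6.36% of 12422 in either direction and 4.27% lower. A relative change here is the log2 mean of calorie restricted mice minus that of controls, from which the median over tested probe sets (-0.15) was taken off, while the test is of the change against 0. When RNA quality and spike-in signal both entered the fit, 0 of the 7453 probe sets were called in limma (907 had an unadjusted p under 0.05). The direction turned for Ttr, F5, Foxj1, both Folr1 probe sets and Aqp1 161559_i_at. Both measures separated the diets, and the SE of the Ttr change went from 0.96 to 2.23, so that fit cannot settle these directions.

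**Figure D1:**
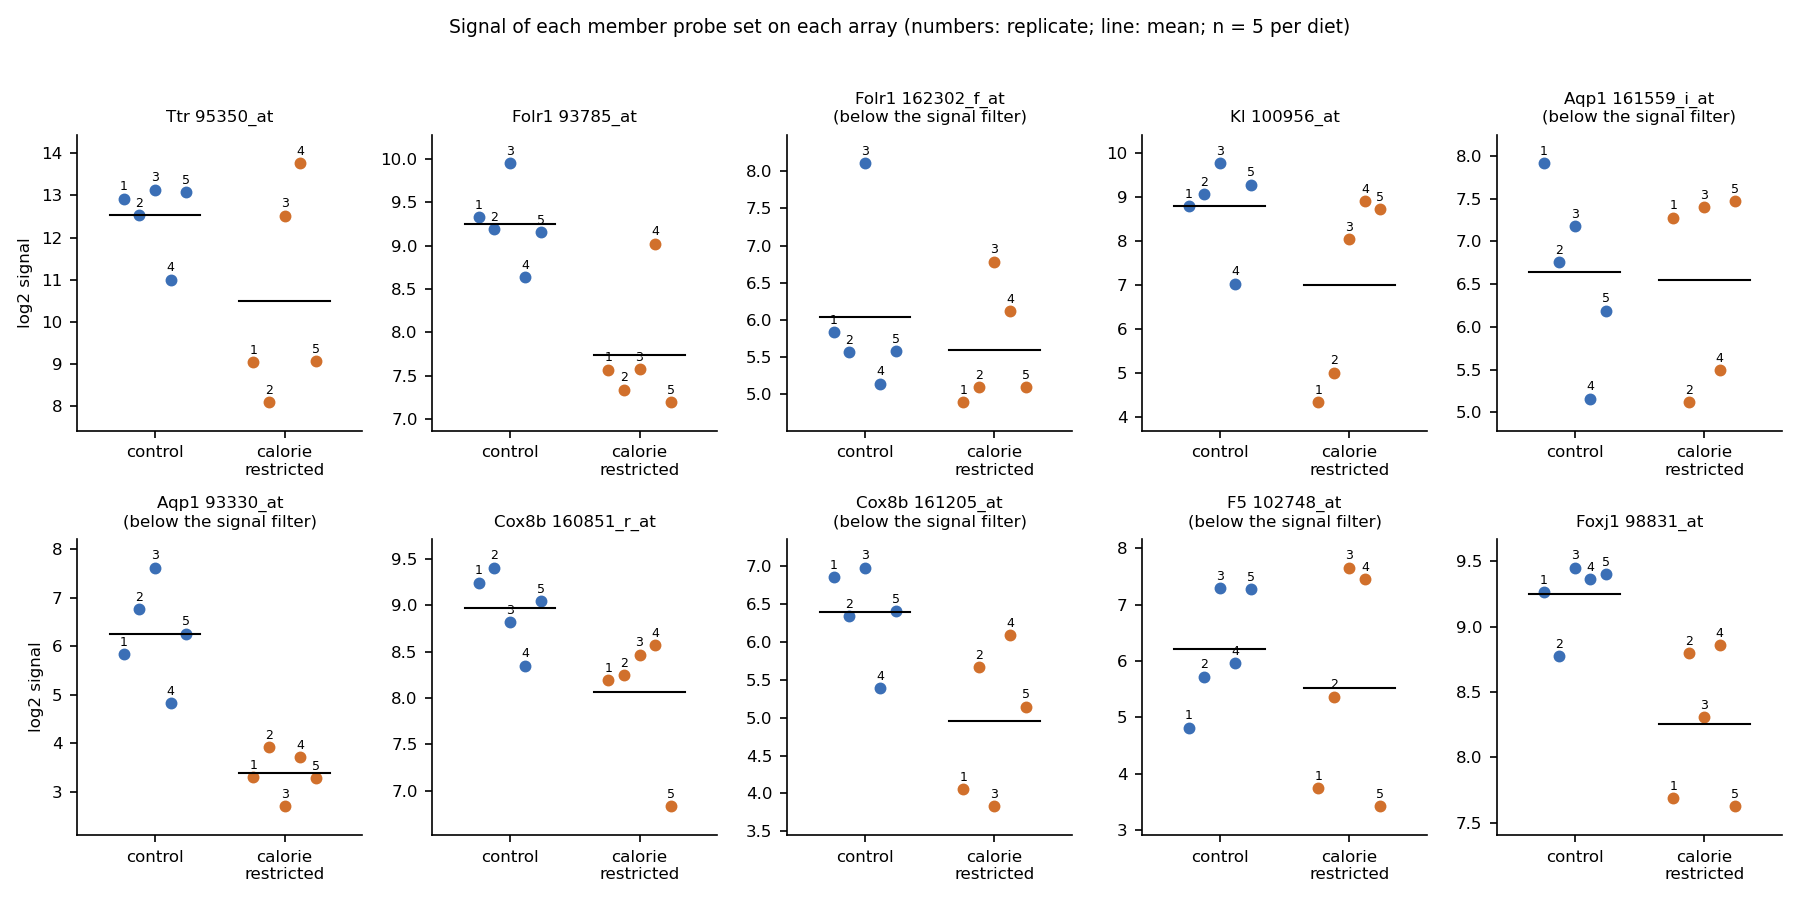
Log2 signal of each of the 10 member probe sets on each array (y axis, separate scale per panel), with control arrays left and calorie restricted arrays right. Numbers give the replicate and lines the mean of 5 arrays. Only the panel of Aqp1 93330_at shows no overlap between diets, and in the Ttr panel calorie restricted arrays 1, 2 and 5 lie under all others.

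Ttr encodes transthyretin, the carrier of thyroxine and of retinol-binding protein that choroid plexus secretes into the cerebrospinal fluid. Its probe set 95350_at had intensities of 7759, 5933, 9016, 2055 and 8622 in control arrays 1 to 5. In calorie restricted arrays 1 to 5 it had 526, 273, 5880, 13888 and 534. Calorie restricted arrays 1, 2 and 5 were lower than any control array, array 3 lay among the controls, and array 4 was the highest of all 10, so the diets overlapped. The values spanned 50.8-fold among calorie restricted arrays and 4.39-fold among control arrays. The SD of log2 signal among calorie restricted arrays was 2.49, larger than that of 99.7% of tested probe sets, and among control arrays 0.89, larger than that of 94.9%. Mean log2 signal was 12.53 ± 0.89 (SD, n = 5) in controls and 10.50 ± 2.49 (SD, n = 5) in calorie restricted mice, a relative change of -1.89 ± 0.96 (SE), which did not pass (limma adjusted p = 0.166). Without calorie restricted array 4 the relative change was -2.70 and passed (limma adjusted p = 0.0481), so that 1 array decided the call. With other single arrays left out it ran from -1.28, without calorie restricted array 2, to -2.39, without calorie restricted array 3. It was -2.13 without calorie restricted arrays 3 and 5 (limma adjusted p = 0.170). The Ttr signal was low in calorie restricted arrays 1 and 2, whose 3′ minus 5′ values were the lowest of their diet, and in array 5, whose value was the highest. Spike-in log2 signal in calorie restricted arrays 1 to 5 was 13.28, 13.67, 12.89, 12.41 and 12.98, the reverse of the order of Ttr. In control arrays 1 to 5 it was 11.80, 11.52, 10.50, 10.62 and 11.17, which did not reverse the order of Ttr. The relation of Ttr to either quality measure was not tested.

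Folr1 encodes the folate receptor alpha, which moves folate across the choroid plexus epithelium into the cerebrospinal fluid. Its brighter probe set 93785_at had intensities of 642, 583, 988, 397 and 569 in control arrays 1 to 5. It had 190, 162, 191, 520 and 146 in calorie restricted arrays 1 to 5. Calorie restricted arrays 1, 2, 3 and 5 were lower than every control array and array 4 lay among the controls. Mean log2 signal was 9.25 ± 0.47 (SD, n = 5) against 7.74 ± 0.74 (SD, n = 5), and Folr1 fell by 1.36 ± 0.35 (SE) relative to the median (limma adjusted p = 0.0219). The call was lost without control array 2 (adjusted p = 0.0549), control array 3 (0.0611) or calorie restricted array 3 (0.0514), and without calorie restricted arrays 3 and 5 together (0.0553), where the relative change was -1.17. It was also lost with RNA quality as a covariate (0.111).

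A further Folr1 probe set, 162302_f_at, was dim and of a kind that can match several transcripts. Its intensities were 57.0, 47.3, 276, 35.2 and 47.8 in control arrays 1 to 5, and 29.7, 34.1, 110, 69.4 and 34.1 in calorie restricted arrays 1 to 5. Control array 3 stood far above the rest, and calorie restricted arrays 1, 2 and 5 lay under every control array. The relative change was -0.30 ± 0.61 (SE) in the fit with no filter (limma adjusted p = 0.677), and it turned to 0.23 without control array 3. It was -0.57 without calorie restricted arrays 3 and 5 (limma adjusted p = 0.614). The 2 probe sets of Folr1 therefore did not give the same call.

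Kl encodes klotho, a membrane and shed co-receptor for FGF23 that is made by kidney and choroid plexus. Its probe set 100956_at had intensities of 446, 538, 872, 131 and 624 in control arrays 1 to 5. It had 20.2, 32.1, 264, 480 and 425 in calorie restricted arrays 1 to 5. Only calorie restricted arrays 1 and 2 lay under the controls, and arrays 3, 4 and 5 lay inside the control range. The span was 23.8-fold among calorie restricted arrays and 6.67-fold among controls, and the SD was larger than that of 99.2% and 97.2% of tested probe sets. Mean log2 signal was 8.79 ± 1.05 (SD, n = 5) against 7.005 ± 2.17 (SD, n = 5), and the relative change of -1.63 ± 0.89 (SE) did not pass (limma adjusted p = 0.186). It ran from -0.96 without calorie restricted array 1 to -2.11 without calorie restricted array 4, so its size rested on single arrays. It was -2.60 without calorie restricted arrays 3 and 5 (limma adjusted p = 0.0794). When RNA quality entered the fit it was -3.28 (0.0531 in limma, adjusted). Array 5 set Kl apart from Ttr, since it held 425 for Kl, inside the control range, and 534 for Ttr, below every control.

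Aqp1 encodes the water channel of the apical face of the choroid plexus epithelium. Its probe set 93330_at had intensities of 57.0, 109, 197, 28.6 and 76.8 in control arrays 1 to 5. It had 9.86, 15.2, 6.52, 13.2 and 9.78 in calorie restricted arrays 1 to 5. All 5 calorie restricted arrays lay under the lowest control array, which was the case for 7.27% of all 12422 probe sets and for no other member. Mean log2 signal was 6.26 ± 1.04 (SD, n = 5) against 3.39 ± 0.47 (SD, n = 5). In the fit with no filter, Aqp1 93330_at fell by 2.72 ± 0.55 (SE) relative to the median (limma adjusted p = 0.0159). The calorie restricted values lay at percentiles 3.32 to 10.98 of their arrays, and the size of the fall depended on how such low values were treated. It was -2.11 with a floor of 16 (limma adjusted p = 0.0233) and -1.27 with 32 added to every intensity (limma adjusted p = 0.0213). Of the 4969 probe sets under the filter, 2.68% were called lower in that fit. It was called without each single array left out in turn and without calorie restricted arrays 3 and 5 (-2.51), and not when RNA quality entered the limma fit (adjusted p = 0.0922). Unlike Ttr, this probe set was as low in calorie restricted array 4 as in the other calorie restricted arrays.

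The other Aqp1 probe set, 161559_i_at, of a kind that rests on fewer probes, did not show this. It had intensities of 241, 108, 145, 35.8 and 72.9 in control arrays 1 to 5, and 155, 34.7, 169, 45.1 and 177 in calorie restricted arrays 1 to 5. The diets overlapped almost wholly. Its relative change was 0.07 ± 0.61 (SE, limma with no filter, adjusted p = 0.947), and -0.57 without calorie restricted arrays 3 and 5, and its sign turned in 9 of 23 alternative settings. The fall of Aqp1 thus rests on 1 dim probe set of 2.

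Cox8b encodes a subunit of cytochrome c oxidase that is best known from heart, skeletal muscle and brown fat. Its probe set 160851_r_at, of a kind whose probes were picked under relaxed rules, had intensities of 607, 679, 453, 326 and 529 in control arrays 1 to 5. It had 293, 304, 354, 381 and 114 in calorie restricted arrays 1 to 5. Calorie restricted arrays 1, 2 and 5 were below every control, and array 5 was far under the rest. Its relative change was -0.76 ± 0.33 (SE, limma adjusted p = 0.0874), and it was -0.48 without calorie restricted array 5 and -0.53 without calorie restricted arrays 3 and 5 (limma adjusted p = 0.116). The dimmer Cox8b probe set 161205_at had 116, 81.1, 127, 42.1 and 84.9 in control arrays 1 to 5, and 16.7, 50.8, 14.2, 68.0 and 35.4 in calorie restricted arrays 1 to 5. Its relative change was -1.29 ± 0.54 (SE, limma with no filter, adjusted p = 0.118), and -1.02 without calorie restricted arrays 3 and 5 (0.287). Both probe sets had a lower mean in calorie restricted mice, neither passed, and both kept that direction in each of the 23 alternative settings.

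F5 encodes coagulation factor V, a cofactor of the clotting cascade that is made mainly in liver. Its probe set 102748_at was dim, with intensities of 28.2, 52.7, 157, 62.3 and 155 in control arrays 1 to 5, and 13.4, 41.3, 202, 175 and 10.7 in calorie restricted arrays 1 to 5. Calorie restricted arrays 3 and 4 were the highest of all 10 arrays and arrays 1 and 5 the lowest. The values spanned 18.8-fold among calorie restricted arrays, and the relative change of -0.53 ± 0.86 (SE) did not pass (limma with no filter, adjusted p = 0.652). It ran from -0.04 without calorie restricted array 5 to -1.06 without calorie restricted array 3, and was -0.59 without both of them.

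Foxj1 encodes the forkhead transcription factor that drives the programme of motile cilia, and it marks ependyma as well as choroid plexus. Its probe set 98831_at had intensities of 615, 438, 700, 659 and 677 in control arrays 1 to 5. It had 206, 445, 316, 463 and 197 in calorie restricted arrays 1 to 5. Calorie restricted arrays 1, 3 and 5 lay under every control, while arrays 2 and 4 were level with the lowest control, array 2. Mean log2 signal was 9.25 ± 0.28 (SD, n = 5) against 8.25 ± 0.59 (SD, n = 5), and Foxj1 fell by 0.84 ± 0.28 (SE) relative to the median (limma adjusted p = 0.0387). The spread was ordinary, larger than that of 47.7% of tested probe sets in controls and of 63.5% in calorie restricted mice. The call was lost with the direction kept in 14 of 23 alternative settings, and in 1 more, with both covariates, the direction turned. Settings that lost it were quantile normalization (limma adjusted p = 0.0788), median centring, a replicate block, no filter (0.0512), RNA quality as a covariate (0.210) and the fit without calorie restricted arrays 3 and 5 (0.0858). It was also lost without any single array other than calorie restricted arrays 2 and 4, with limma adjusted p of 0.0534 to 0.0907.

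**Figure D2:**
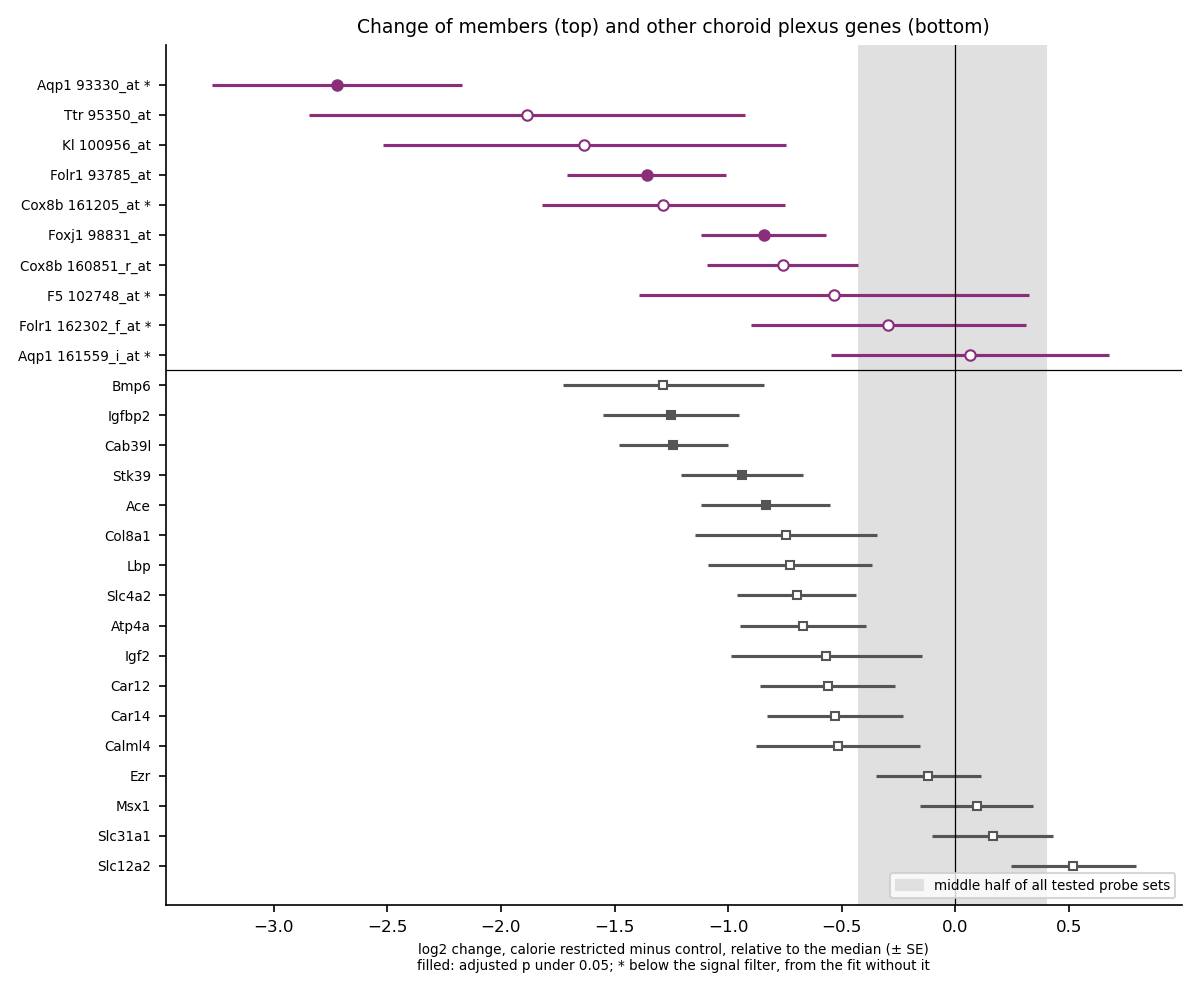
Log2 change of each member probe set (upper block) and of the 17 other tested genes of the choroid plexus list (lower block), as calorie restricted minus control after the median of tested probe sets was taken off, with bars of ± SE. Filled symbols passed an adjusted p under 0.05, asterisks mark probe sets under the filter, and the grey band is the middle 50% of tested probe sets, from -0.42 to 0.40. In the upper block 9 of the 10 points lie below 0, as do 50% of tested probe sets. The median of all probe sets under the filter is -0.21 on this scale.

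The members were often high or low on the same arrays. Among control arrays, array 4 had the lowest value in 8 of the 10 member probe sets and array 3 the highest in 8. Among calorie restricted arrays, array 4 was the highest in 6 and above the mean of its diet in 9, and array 5 was the lowest in 4. The 10 probe sets stand for 7 genes. How often each array was lowest or highest over all probe sets was not counted. Median log2 signal was highest in control array 3 (7.92) and lowest in calorie restricted array 5 (7.25). It was 7.85 in control array 4 and 7.42 in calorie restricted array 4. Control array 4 had a 3′ minus 5′ value of -0.07 and a neuronal marker sum of 6876, both within the range of the other control arrays. Its blood, thalamic, striatal and endothelial marker sums also lay within that range. Its sums for astrocyte (6820), microglial (7253), oligodendrocyte (17976), meningeal (7104) and ependymal markers (1202) were the highest of the control arrays. The member Foxj1 held 659 of the ependymal sum, so that sum is not separate from the members. The part of these cell types in its member values was not tested.

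To set diet aside, each signal was taken as a deviation from the mean of its own diet, and each of the other 9 member probe sets was compared with Ttr over the 10 arrays. These 9 relations are across arrays that share their scaling. The permutations moved deviations freely between diets, although the SD of Ttr was 0.89 in control and 2.49 in calorie restricted arrays. Their p values are therefore approximate. All 9 Pearson correlations were above 0, as were 53.0% of those of tested probe sets. Folr1 93785_at had r = 0.78 and rho = 0.78 with Ttr (permutation p = 0.00722 and 0.0107, adjusted p = 0.0650 and 0.0373), and r = 0.54 without the 2 arrays farthest from the median, calorie restricted arrays 2 and 4. Kl had r = 0.71 and rho = 0.77 with Ttr (permutation p = 0.0226 and 0.0124, adjusted p = 0.0678 and 0.0373), and r = 0.53 without those arrays. F5 had r = 0.74 and rho = 0.66 with Ttr (permutation p = 0.0147 and 0.0428, adjusted p = 0.0664 and 0.0963), and r = 0.79 without them. Folr1 162302_f_at had r = 0.62 and rho = 0.87 with Ttr (permutation p = 0.0577 and 0.00237, adjusted p = 0.130 and 0.0213), and r = 0.69 without them. After adjustment over the 9 pairs, 0 of the 9 Pearson correlations and 3 of the 9 rank correlations passed, and Pearson's r had an unadjusted permutation p under 0.05 in 3.

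The remaining members had lower correlations with Ttr, although a difference between members was not tested. Cox8b 160851_r_at had r = 0.54 and rho = 0.45 with Ttr (permutation p = 0.111 and 0.194, adjusted p = 0.201 and 0.350), and r = 0.65 without calorie restricted arrays 2 and 4. Foxj1 had r = 0.37 and rho = 0.31 with Ttr (permutation p = 0.293 and 0.384, adjusted p = 0.440 and 0.576), and r = 0.56 without them. Cox8b 161205_at had r = 0.23 and rho = 0.16 with Ttr (permutation p = 0.524 and 0.657, adjusted p = 0.674 and 0.740), and r = 0.10 without them. Aqp1 161559_i_at had r = 0.13 and rho = 0.26 with Ttr (permutation p = 0.712 and 0.466, adjusted p = 0.729 and 0.599), and r = 0.31 without them. Aqp1 93330_at had r = 0.13 and rho = 0.09 with Ttr (permutation p = 0.729 and 0.811, adjusted p = 0.729 and 0.811), and r = 0.22 without them. Against all 7452 other tested probe sets, the r of Folr1 93785_at was higher than 99.5%, that of F5 higher than 99.0% and that of Kl higher than 98.6%. The share was 97.0% for Folr1 162302_f_at, 94.6% for Cox8b 160851_r_at and 85.4% for Foxj1. It was 72.7% for Cox8b 161205_at, 62.9% for Aqp1 161559_i_at and 62.1% for Aqp1 93330_at.

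**Figure D3:**
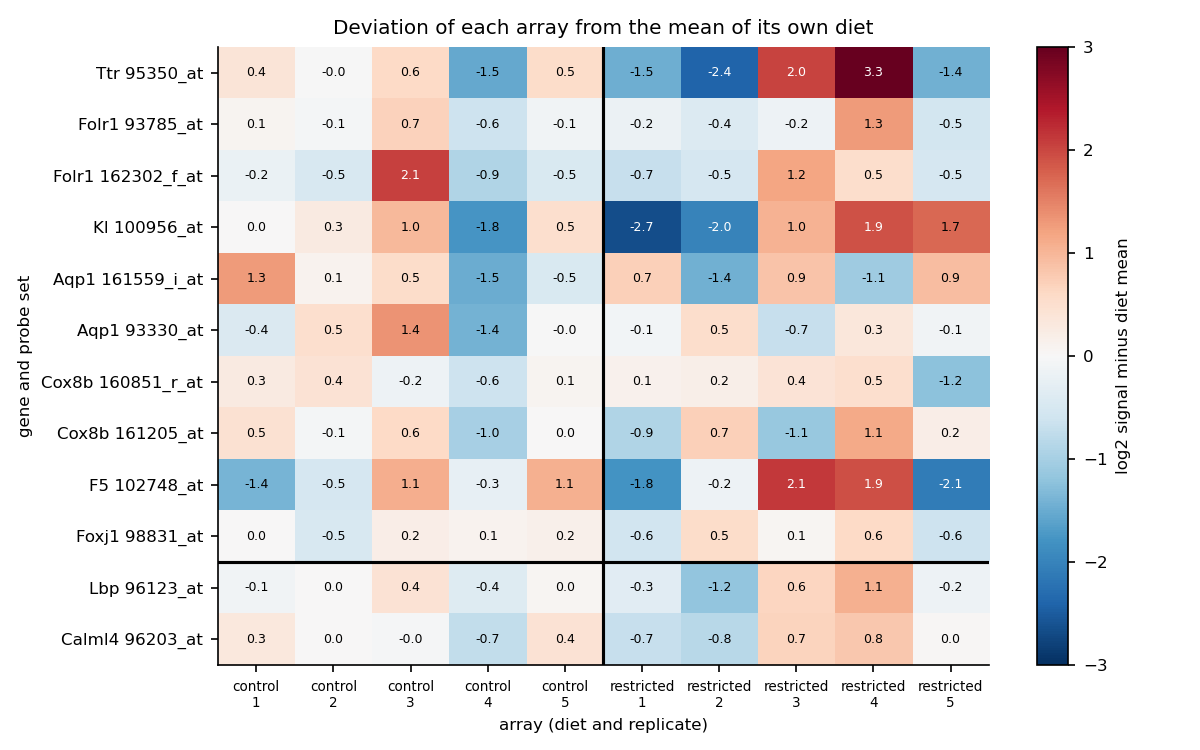
Log2 signal of each member probe set (rows), with Lbp and Calml4 under the line, on each array (columns), as the deviation from the mean of the array's own diet. Red is above and blue below that mean. Control array 4 is blue in 9 of the 10 member rows, and calorie restricted array 4 is red in 9.

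The 5 named probe sets most like Ttr on this scale, out of 6730 that were tested, had 1 gene symbol and were not members, were those of Col9a3 (r = 0.97), Map3k11 (0.94), Lbp (0.94), Calml4 (0.91) and Rac1 (0.90), over 10 arrays. Without calorie restricted arrays 2 and 4 their r was 0.85 to 0.95. Of these, Lbp, a lipopolysaccharide-binding protein, and Calml4, a calmodulin-like protein, were on the list of choroid plexus genes. Lbp had intensities of 741, 795, 1071, 609 and 820 in control arrays 1 to 5, and 339, 189, 669, 896 and 387 in calorie restricted arrays 1 to 5. Like Ttr, it was low in calorie restricted arrays 1, 2 and 5, and array 4 was within the control range. Slc4a5, a bicarbonate transporter of choroid plexus whose probe set was under the filter, had r = 0.91 with Ttr, and its intensities ran from 77.8 to 262 in control arrays and were 14.0, 18.7, 89.1, 173 and 46.8 in calorie restricted arrays 1 to 5. Calorie restricted arrays 1, 2 and 5 were again the lowest. The other genes of that list under the filter varied in their r with Ttr. It was 0.69 for Htr2c, 0.61 for Wfdc2, 0.45 for Perp, 0.30 for Krt8 and 0.08 for Cldn3. It was -0.17 for Cldn1, -0.25 for Krt18 and -0.57 for Cldn2. These likenesses are descriptions of 10 arrays.

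**Figure D4:**
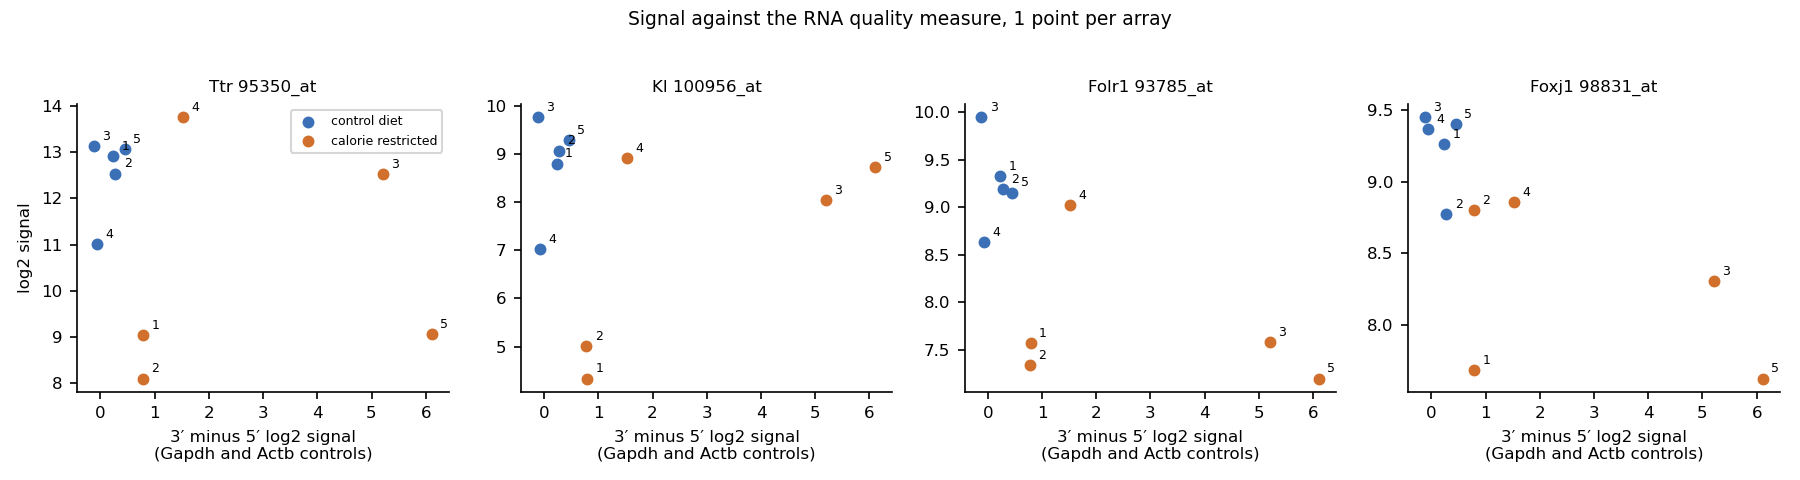
Log2 signal of Ttr, Kl, Folr1 and Foxj1 (y axes) on each array against the log2 3′ minus 5′ signal of the Gapdh and Actb controls (x axis), control arrays in blue and calorie restricted arrays in orange, with replicate numbers. In the Ttr panel, calorie restricted arrays 1 and 2 at the left and array 5 at the right are all low. Spike-in signal is not shown.

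The wider list of choroid plexus genes, without the members, held 46 genes, of which 26 had a probe set and 17 were tested. None was called higher, 4 were called lower and 13 were not called (23.5% called, against 11.8% of all tested). The median relative change was -0.67, against 0 by construction over all tested probe sets, and 14 of the 17 lay below 0. The 4 that fell were Igfbp2, an insulin-like growth factor binding protein, with a change of -1.25 ± 0.30 (SE, limma adjusted p = 0.0175), Cab39l, an adaptor of the kinase Stk11, with -1.24 ± 0.24 (0.00855), Stk39, a kinase that regulates cation-chloride transport, with -0.94 ± 0.27 (0.0265), and Ace, the angiotensin-converting enzyme, with -0.83 ± 0.28 (0.0432). The diets did not overlap in 5 of the 17 tested genes, with calorie restricted mice lower, against 9.35% of all tested probe sets. These were the 4 called genes, for which a call makes this likely, and a gene that was not called. Igfbp2 had 906, 970, 1610, 966 and 977 in control arrays 1 to 5 and 437, 310, 342, 838 and 265 in calorie restricted arrays 1 to 5, so calorie restricted array 4 was again the highest of its diet. Stk39 had 518, 580, 549, 495 and 685 against 362, 391, 240, 268 and 140, and there array 4 was not high. Many of these genes are also expressed outside choroid plexus.

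All 4 called genes were also called without calorie restricted arrays 3 and 5, while Ace was not called after quantile normalization (limma adjusted p = 0.158). With RNA quality as a covariate only Cab39l passed (adjusted p = 0.0449), and the change of Stk39 was -0.45. Of the brightest genes of the list that were not called, Igf2 had -0.57 ± 0.42 (SE), the cotransporter Slc12a2 0.52 ± 0.27 and Ezr -0.12 ± 0.23. Htr2c, the serotonin receptor of choroid plexus and some neurons, was under the filter and fell by 2.13 in the fit with no filter (limma adjusted p = 0.0218). In that fit 2.68% of the 4969 probe sets under the filter were called lower. No other gene of the list under the filter passed. Their changes were -1.52 for Slc4a5, -1.09 for Wfdc2, -0.45 for Krt18 and -0.41 for Cldn2. Cldn3, Perp, Krt8 and Cldn1 had 0.02, 0.15, 0.53 and 0.93. The summed intensity of the list ran from 12553 to 19413 in control arrays and from 8008 to 14459 in calorie restricted arrays. Calorie restricted array 4 had the 14459 and array 2 the 8008. The correlation of the 17 genes with Ttr on the deviation scale had a median of 0.42, against 0.02 over all tested probe sets, and was above 0 in 14.

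Few genes of the ependymal and motile cilium list could be tested. Of 40 genes, 15 had a probe set and 7 were tested, and 0 were called in limma, against 11.8% of all tested probe sets. An unadjusted p under 0.05 was found for 3 of the 7, against 31.6% of all tested. The median relative change was -0.22, and 6 of 7 lay below 0. Ift88, of intraflagellar transport, had -0.07 ± 0.21 (SE), Rsph1, of the ciliary radial spoke, -0.22 ± 0.16, and the lipid transfer protein Pltp 0.32 ± 0.42. Their difference from Foxj1 was not tested.

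Genes that work with the members were taken from lists of partners. Of 5 tested genes of thyroid hormone and retinol transport, the pathway Ttr serves, 2 rose and 0 fell, namely Rbp4, the retinol-binding protein carried by transthyretin, by 1.20 ± 0.26 (SE, limma adjusted p = 0.0274) and Dio2, which activates thyroxine, by 1.23 ± 0.29 (0.0366). Thra, Crym and Hr were not called, at 0.51, -0.26 and -0.43. Without calorie restricted arrays 3 and 5 the changes were 0.79 for Rbp4 (limma adjusted p = 0.0735) and 0.78 for Dio2 (0.0262). With RNA quality as a covariate they were 0.59 and 0.56, and neither passed (0.225 and 0.286). The direction of Rbp4 was thus opposite to that of its binding partner's mean change, which did not pass.

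Of 5 tested folate genes, 2 fell and none rose. These were Folr2, the folate receptor beta, with a change of -1.34 ± 0.42 (SE, limma adjusted p = 0.0389), and the mitochondrial enzyme Shmt2, with -0.71 ± 0.22 (0.0287). Mthfd2 had -0.55, the reduced folate carrier Slc19a1 0.05 and Fpgs -0.71, and none of these passed. Folr2 was not called after quantile normalization (limma adjusted p = 0.0689) or without calorie restricted arrays 3 and 5 (0.0521). Folr2 is known from macrophages, and the microglial markers (5 of 5 with a probe set) summed to 4677 to 7253 in control arrays and 2399 to 5605 in calorie restricted arrays. Their part in the Folr2 value was not tested.

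Of 3 tested partners of klotho, the FGF receptor Fgfr3 fell by 1.96 ± 0.47 (SE, limma adjusted p = 0.0205), while Fgfr1 and Fgfr2 had 0.28 and 0.14. Both tested aquaporins fell, Aqp4 of astrocyte endfeet with a change of -1.39 ± 0.44 (SE, limma adjusted p = 0.0423; -1.94 in a further probe set, 0.0192) and Aqp8 with -1.92 ± 0.48 (0.0225), although Aqp8 was not called after quantile normalization (0.0560). Astrocyte markers (3 of 5, Aqp4 among them) summed to 2780 to 6820 in control arrays and 2230 to 3631 in calorie restricted arrays, and their part in the Aqp4 value was not tested. Of 8 tested cytochrome c oxidase genes, the family of Cox8b, 3 rose, Cox6a2 by 2.08 ± 0.40 (SE, limma adjusted p = 0.0154), Cox6a1 by 1.51 ± 0.24 (0.0101) and Cox7a2 by 1.11 ± 0.21 (0.0183), and Cox6b1 fell by 0.79 ± 0.28 (0.0459). Their median relative change was 0.85, so both Cox8b probe sets lay on the other side of 0 from most of the family. Cox6c, Cox5b and Cox7b had 0.94, 0.71 and 0.75 and did not pass. After quantile normalization Cox6a1, Cox7a2 and Cox6b1 were not called (limma adjusted p = 0.0503, 0.0842 and 0.103), and Cox6b1 was not called without calorie restricted arrays 3 and 5 (0.0649).

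Prolactin signalling, the pathway of Prlr, had 0 of 7 tested genes called in limma, while 3 had an unadjusted p below 0.05, and Stat3, Stat5a and Socs2 had -0.27, -0.25 and -0.36. Coagulation, the pathway of F5, had 0 of 5, while 1 had an unadjusted p below 0.05, and F7, F3 and F2r had -0.41, 0.49 and 0.14. A further F2r probe set went the other way and passed, at -1.46 ± 0.43 (SE, limma adjusted p = 0.0346). Of the homeobox relatives of Otx2 only Pax6 was tested. It had a relative change of 0.47, and 0 were called in limma, either after adjustment or at an unadjusted p below 0.05.

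Lists for tissues next to the hippocampus gave the following. Of 7 tested meningeal genes 0 were called in limma, while 1 had an unadjusted p below 0.05. Their median relative change was 0.16 and their largest was that of Ptgds, at 1.95 ± 0.71 (SE, adjusted p = 0.109). Of 7 tested genes of thalamus and habenula, Tcf7l2 and Tnnt1 fell, with -0.59 ± 0.22 and -0.81 ± 0.23 (SE, limma adjusted p = 0.0446 and 0.0239), while a further Tnnt1 probe set rose by 1.92 ± 0.38 (0.0176) and a further Prkcd probe set fell by 0.52 ± 0.17 (0.0310). Of 2 striatal genes 0 were called in limma, while 1 had an unadjusted p below 0.05, and Penk and Drd2 had 1.37 and 0.17. Of 3 blood genes, Hbb-b2 fell by 1.46 ± 0.34 (SE, limma adjusted p = 0.0154). Of 11 tested genes of hippocampal neurons, Tbr1 rose by 1.37 ± 0.32 and Neurod6 fell by 1.11 ± 0.34 (SE, limma adjusted p = 0.0321 and 0.0345). Tcf7l2, Tnnt1 and Neurod6 were not called after quantile normalization (0.0989, 0.136 and 0.0672), and Tcf7l2 was not called without calorie restricted arrays 3 and 5 (0.0845). The summed intensity of the thalamus and habenula list ran from 4079 to 5047 in control arrays and from 3147 to 4004 in calorie restricted arrays, so the diets did not overlap. This was not particular to that list. The sums of the folate, aquaporin, coagulation and cytochrome c oxidase lists did not overlap either, the last with calorie restricted arrays higher. The striatal list summed to 1198 to 2274 and 1683 to 6411, the blood list to 4398 to 15941 and 4105 to 8696, and the meningeal list to 8311 to 33567 and 15023 to 59725. Of the 16 genes called in the lists other than that of choroid plexus, 12 were called without calorie restricted arrays 3 and 5, and 4 with RNA quality as a covariate (Neurod6, Shmt2, Aqp8 and Cox6a1). With that covariate, changes moved by over 1.5 times for Folr2 (-0.61), Aqp4 (-0.62), Cox6b1 (-0.45), Neurod6 (-1.74) and Aqp8 (-3.02) as well as for Rbp4 and Dio2. The part of neighbouring tissue in the member values was not tested.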

How the data were processed

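The authors deposited 1 intensity per probe set and array on a linear scale, computed with MAS5, per the submitters' processing notes. For MAS5, version and settings were not given in the sources used here. The mean with 2% left out at each end was 500.2 to 500.4 on each array. Values under 1 (41 of 124880) were set to 1 and taken to log2. The 66 control probe sets were left out, and those with a mean log2 signal under the 40th percentile (6.85, an intensity of 115) were not tested.

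Diets (5 arrays each) were compared with limma 3.58.1 in R 4.3.3 (lmFit, eBayes with a variance trend, no covariate), with Benjamini-Hochberg adjustment over 7453 probe sets and a threshold of 0.05. Members under the filter were read from the same fit over 12422. Correlations used 100000 resamples in scipy 1.17.1. The fit was tested on simulated data. The platform's annotation gave the gene names. The sources used here name no genome build for the probes. Members, gene lists, motifs and alternatives were chosen with earlier results of these data known. Named are all member probe sets and the 5 genes most like Ttr. From each list, its called genes and up to 3 of the brightest others are named. Slc4a5, Htr2c and the further F2r, Tnnt1, Prkcd and Aqp4 probe sets were added after their values were seen. So were the other genes of the choroid plexus list under the filter. Alternatives changed the scaling, filter, floor, variance model, covariates, threshold and arrays used.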

Additional observations from a re-analysis of the deposited data

Results flagged for a closer look

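Each diet's 5 values of each of the 10 member probe sets and 3 quality measures were examined for a value far from the other 4, and 5 of these 26 groups held one; chance gives about 1 in 20. In log2 signal, these were Ttr in control array 4 (11.005, low), Folr1 93785_at in calorie restricted array 4 (9.02, high), Folr1 162302_f_at in control array 3 (8.11, high), Cox8b 160851_r_at in calorie restricted array 5 (6.83, low) and Foxj1 in control array 2 (8.77, low). The gap to the nearest other array was 0.717, 0.791, 0.766, 0.783 and 0.723 of the whole range, in the same order, against a critical value of 0.71.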

How the results depend on the processing

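With 5 arrays a diet and 1 array deciding some calls, limma called 883 probe sets (306 higher, 577 lower). Quantile normalization gave 321 higher and 282 lower, and median centring 849 higher and 190 lower, so the split depends on the scaling. The count was 333 with RNA quality as a covariate, 0 with RNA quality and spike-in signal (907 at an unadjusted p under 0.05), 1627 at a threshold of 0.1 and 253 to 1251 with 1 array left out (253 to 553 without a control array, the lowest without array 2, 1251 without calorie restricted array 2, and 349 and 561 without calorie restricted arrays 3 and 4). Of the 5 tested member probe sets, 2 were called. This fell to 1 after quantile normalization or median centring, to 0 with RNA quality (3 at an unadjusted p under 0.05 in limma), with both covariates (0 at an unadjusted p under 0.05 in limma) and without calorie restricted arrays 3 and 5 (5 at an unadjusted p under 0.05 in limma), and ran from 0 to 3 with 1 array left out (0 without control array 2 or 3 or calorie restricted array 3, and 3 without calorie restricted array 4). With both covariates the relative changes turned for Ttr (0.90 ± 2.23, SE), Folr1 93785_at (0.16 ± 0.78), Folr1 162302_f_at (1.46 ± 1.51), F5 (3.01 ± 2.01) and Foxj1 (0.030 ± 0.64). Both covariates separated the diets, so that fit cannot settle these directions. Folr1 162302_f_at also turned without control array 3, and ran from -0.59 to 0.23 with 1 array left out. Aqp1 161559_i_at turned with array weights (-0.16), RNA quality (-0.82), both covariates (-2.10) and without calorie restricted arrays 3 and 5 (-0.57), and ran from -0.30 to 0.43 with 1 array left out. The cause was not tested. The replicate numbers did not pair the arrays (correlations of deviations -0.08 to 0.17); with a replicate block 540 probe sets and 1 member probe set were called. Of 9 Pearson correlations with Ttr, 4 passed on uncorrected log2 signal, 3 on it after quantile normalization, 0 on it without its 2 farthest arrays (calorie restricted 1 and 2) and 0 on deviations from diet means, where 3 rank correlations passed. On deviations without calorie restricted arrays 2 and 4, the rank correlation of Folr1 162302_f_at passed (adjusted permutation p = 0.00981). On deviations after quantile normalization, F5 (r = 0.76, permutation p = 0.0107, adjusted p = 0.0482) and Folr1 93785_at passed (r = 0.83, permutation p = 0.00293, adjusted p = 0.0264). The direction of Kl, both Cox8b probe sets and Aqp1 93330_at held in each alternative run, of which median centring and the threshold cannot move it.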
